A study of Mus musculus with 9 samples.

Results

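Nuclear oxidative phosphorylation genes were taken as all entries of the count files whose symbol begins with Nduf, Uqcr, Atp5 or Cox4 to Cox8 and holds no "-ps", with the entry of highest total kept where a symbol stood on several. The rule gave 93 genes of 54427 distinct symbols. They comprised 44 genes of complex I (7 catalytic core subunits, 29 accessory subunits and 8 Ndufaf assembly factors), 8 of complex III, 12 of complex IV, 16 of complex V, 8 isoforms of restricted tissue distribution and 5 gene copies or other genes. The rule used symbols only, not measured values, but the set was chosen with earlier results of these data known. Of the 93, 86 had enough counts to be tested among 14193 genes. Cox7b2, Cox8c and Ndufa11b had no count in any library, and Cox6a2, Cox6b2, Cox6c2 and Cox8b were too low to test.

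The respiratory chain of the inner mitochondrial membrane passes electrons from NADH (complex I) and succinate (complex II) through coenzyme Q, complex III and cytochrome c to oxygen at complex IV, and the proton gradient built on the way drives ATP synthesis at complex V. Complexes I, III, IV and V are built from subunits encoded in the nucleus together with a small set encoded in mitochondrial DNA, so both genomes contribute to each of them. Nuclear subunit genes are broadly expressed housekeeping genes whose promoters are known to be bound by NRF1, the ETS-family factor GABP and YY1, with coactivation by Ppargc1a. In melanoma, Ppargc1a is known as a target of the melanocyte factor MITF that favours oxidative metabolism.

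Bulk RNA-seq counts were available for 9 libraries of subcutaneous tumours collected on day 16 after C57BL/6 mice had received B16-F10 cells, a melanoma line of mouse origin. Control libraries (3, titled shcontrol, genotype WT) came from cells with a control shRNA, a short hairpin RNA for knockdown. The other groups, of 3 libraries each, came from cells with the hairpin titled shFBXO38#1 or shFBXO38#2 (called hairpin 1 and hairpin 2), both aimed at Fbxo38, an F-box gene whose product binds substrates for a ubiquitin ligase. All 9 samples carry the treatment label "none", and the hairpins were placed in the tumour cells, not in the host cells that the tissue also holds. The genotype labels of the 6 samples with an Fbxo38 hairpin run from FBXO38 to FBXO43, so groups were taken from the titles. Whether a replicate is a separate mouse is not stated, so each p-value reflects only the variation among these libraries, which may be technical.

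The targeted transcript was examined first. Fbxo38 stood at 21.7, 31.3 and 30.8 CPM (counts relative to the TMM-scaled library size) in the control libraries, at 35.1, 21.0 and 22.0 CPM in the libraries labelled hairpin 1, and at 21.0, 11.4 and 11.9 CPM with hairpin 2. Hairpin 2 libraries lay below all controls (log2 fold change -0.92, SE 0.29; edgeR adjusted p = 0.254), whereas those labelled hairpin 1 showed no detectable decrease (-0.10, SE 0.28; edgeR adjusted p = 1.00). The latter are therefore called by their label. Library totals ran from 15322163 to 17342554 counts, and the 7 melanoma cell markers Pmel, Mlana, Tyr, Tyrp1, Dct, Mitf and Sox10 summed to between 20473 and 26930 CPM, with none at 0. The first library labelled hairpin 1 and the second of hairpin 2 lay outside the range of the others on the first principal component. The former had the highest summed fibroblast markers (3231 CPM, against 161 to 1367 CPM in the other libraries) and the latter the highest summed erythroid markers (21541 CPM, against 422 to 4976 CPM). Member results that rest on these libraries are given with and without them.

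Levels of different members were compared only per transcript length, as CPM per kb with lengths from GENCODE M21. Among complex I core subunits, the control level of Ndufs1, an iron-sulfur subunit of the hydrophilic arm, was 65.1 CPM per kb. Accessory subunits of complex I ran from 7.29 CPM per kb (Ndufb2) to 160 CPM per kb (Ndufb10), and the assembly factors, which help to build the complex but are not part of it, from 8.25 (Ndufaf4) to 26.3 CPM per kb (Ndufaf8). In control libraries, each of the 8 assembly factors thus lay below each of the 7 core subunits. The value of Ndufb2 depends on the length taken, 2413 bases as the median of 2 principal transcripts. Complex III ran from 76.7 CPM per kb (Uqcrb) to 253 CPM per kb for Uqcrc1, a core protein, and complex IV from 122 (Cox7b) to 578 CPM per kb (Cox4i1, the common form of subunit 4). Complex V held the member of highest level per length, Atp5b, the catalytic beta subunit of the F1 head, at 1019 CPM per kb, and ran down to 32.0 CPM per kb for the membrane subunit gene Atp5k.

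Tested members varied little over the 9 libraries beside other genes. The median SD of log2 CPM over all libraries was 0.17 for the 86 tested members and 0.26 for all 14193 tested genes, and 74 of the 86 lay below the latter. Members and other genes were not matched by level, so the part of expression level in this difference was not tested. Ndufab1, which encodes the mitochondrial acyl carrier protein, varied least (SD 0.073), at 56.2, 55.4 and 52.2 CPM in control, 50.1, 49.5 and 52.2 CPM labelled hairpin 1 and 52.0, 47.9 and 51.2 CPM with hairpin 2. Ndufs4, an accessory subunit of the NADH module, and Ndufa10 followed, with SDs of 0.075 and 0.076. The most variable members were low ones, namely Ndufs6b (0.90), Cox7a1 (0.81) and Ndufa4l2 (0.70).

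Promoters are shown for members on which the comparisons turn, Uqcrc1 and Ndufs8, and for a pair of subunit 8 isoforms that differ in tissue range, Cox8a and Cox8b. Each runs from 250 bases before to 50 bases after the RefSeq gene start on GRCm38.p6. Capitals mark matches to the NRF1 motif in Uqcrc1, the ETS motif in Ndufs8 and Cox8a, and the TATA motif in Cox8b. Uqcrc1 is chr9:108936398-108936697 on the plus strand, Ndufs8 chr19:3912725-3913024, Cox8a chr19:7217567-7217866 and Cox8b chr7:140900397-140900696, the last 3 on the minus strand.
Uqcrc1: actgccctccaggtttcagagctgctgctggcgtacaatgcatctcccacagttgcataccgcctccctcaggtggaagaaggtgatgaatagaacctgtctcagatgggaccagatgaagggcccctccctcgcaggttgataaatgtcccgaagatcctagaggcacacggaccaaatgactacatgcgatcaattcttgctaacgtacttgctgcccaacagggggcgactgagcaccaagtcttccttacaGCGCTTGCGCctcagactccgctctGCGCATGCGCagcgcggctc
Ndufs8: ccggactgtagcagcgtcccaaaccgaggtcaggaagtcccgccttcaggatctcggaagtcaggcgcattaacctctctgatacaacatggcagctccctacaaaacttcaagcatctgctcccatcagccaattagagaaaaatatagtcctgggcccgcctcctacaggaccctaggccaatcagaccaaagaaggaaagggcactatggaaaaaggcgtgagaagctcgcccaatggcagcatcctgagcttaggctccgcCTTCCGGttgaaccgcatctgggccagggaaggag
Cox8a: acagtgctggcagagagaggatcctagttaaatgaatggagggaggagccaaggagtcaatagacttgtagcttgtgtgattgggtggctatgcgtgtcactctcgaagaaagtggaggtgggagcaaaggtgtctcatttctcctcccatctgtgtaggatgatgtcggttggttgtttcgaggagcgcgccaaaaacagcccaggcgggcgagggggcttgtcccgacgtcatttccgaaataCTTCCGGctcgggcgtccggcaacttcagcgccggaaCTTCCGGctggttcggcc
Cox8b: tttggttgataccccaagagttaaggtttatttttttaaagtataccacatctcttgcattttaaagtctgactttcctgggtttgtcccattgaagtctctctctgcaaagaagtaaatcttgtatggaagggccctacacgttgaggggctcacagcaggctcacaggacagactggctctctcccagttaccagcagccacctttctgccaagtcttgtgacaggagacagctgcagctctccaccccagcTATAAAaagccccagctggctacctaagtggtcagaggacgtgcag

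RefSeq promoters were matched by symbol, or else by an unambiguous synonym, for 73 of the 93 members, 68 of them subunits or assembly factors. A gene with several promoters was counted as holding a motif if any of them did. On either strand, the NRF1 motif (GCGCA, any base, then GCGC) was in 17 of these 68 (25%). It was in 5.19% of all 27025 genes with a promoter and in 11.3% of the 10290 tested genes with one. The ETS motif CCGGAAG was in 16 (23.5%), against 9.93% of all and 19.8% of tested genes. The YY1 motif AAGATGGC, whose first bases can overlap the last bases of the ETS motif, was in 11 (16.2%), against 3.19% and 5.18%. The TATA motif TATAAA was in 5 (7.35%), against 15.7% and 8.79%. Of 4 restricted isoforms with a promoter, none held a match to the NRF1, ETS or YY1 motif and 2 held TATAAA. The median number of CpG dinucleotides, in the promoter of each gene with most of them, was 20 over the members, 8 over all genes and 22 over tested genes. The members' shares lay above those of tested genes for NRF1 and YY1 and near them for ETS and TATA, which describes letters in a window and not binding.

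Isoforms known from heart and skeletal muscle or testis were at trace level beside their common partners. Over the 9 libraries and per length, Cox4i1 stood 325-fold above the oxygen-responsive form Cox4i2, Cox6a1 1258-fold above the muscle form Cox6a2, and Cox6b1 406-fold above the testis form Cox6b2. Cox7a2 stood 127-fold above the muscle form Cox7a1, and Cox8a 1512-fold above the muscle form Cox8b, which had 15 counts in all. Against the testis forms without any count, taking 3 counts over the 9 libraries as the limit that a count of 0 allows, Cox7b was at least 3282-fold higher than Cox7b2 and Cox8a at least 9616-fold higher than Cox8c. These limits cover counting error only.

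Cox8b had no count in the 3 control libraries and stood at 0.178, 0.0673 and 0.0631 CPM labelled hairpin 1 and at 0.126, 0.0596 and 0.426 CPM with hairpin 2, the highest value resting on 7 counts. The 10 skeletal muscle markers, which include Acta1, Ckm and Mylpf, summed to 13.1, 4.12 and 12.7 CPM in control, 9.71, 15.9 and 4.86 CPM labelled hairpin 1 and 5.40, 4.71 and 20.5 CPM with hairpin 2. The library with most Cox8b also had the highest summed muscle markers, and the part of muscle tissue in this value was not tested. Cox6a2 stood at 0.0597, 0 and 0.416 CPM in control, 0.710, 0.269 and 0.695 CPM labelled hairpin 1 and 0.0628, 0.0596 and 0.122 CPM with hairpin 2. Both hairpin groups overlap the controls, while hairpin 2 lay below every library labelled hairpin 1, at 1 or 2 counts per library against 4 to 12.

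Ndufa4l2, a paralog of the complex IV subunit gene Ndufa4 that is known to be induced by hypoxia through HIF1 and to mark pericytes, was the restricted member of highest level. It stood at 3.10, 5.75 and 3.45 CPM in control, 15.7, 4.84 and 4.36 CPM labelled hairpin 1 and 3.77, 6.74 and 6.95 CPM with hairpin 2, with 52 to 265 counts per library. Only replicate 1 labelled hairpin 1 lay above all controls in its group. The log2 fold change for the libraries labelled hairpin 1 was 1.02 (SE 0.51; edgeR adjusted p = 1.00) and 0.15 without that replicate. Pericyte markers (Rgs5, Pdgfrb, Notch3 and 5 others) summed to 105, 185 and 133 CPM in control, 281, 142 and 205 CPM labelled hairpin 1 and 171, 366 and 167 CPM with hairpin 2. All 8 pericyte markers had a log2 fold change above 0 in the libraries labelled hairpin 1 and 7 of 8 with hairpin 2. None passed edgeR's threshold in either comparison (2 and 4 higher at an unadjusted p under 0.05, against 1.85% and 8.14% of all tested genes, of which 52.6% and 51.5% were above 0), and their part in the Ndufa4l2 values was not tested. Ndufa4 itself stood at 178, 187 and 229 CPM in control, 229, 181 and 203 CPM labelled hairpin 1 and 198, 188 and 196 CPM with hairpin 2, with overlapping groups, and per length 57.2-fold above Ndufa4l2 over the 9 libraries.

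Cox4i2, known from lung and pericytes, stood at 0.477, 1.63 and 0.892 CPM in control, 1.48, 1.55 and 1.20 CPM labelled hairpin 1 and 0.941, 1.43 and 2.56 CPM with hairpin 2. Cox7a1 stood at 0.239, 1.11 and 1.73 CPM in control, 0.829, 0.404 and 0.821 CPM labelled hairpin 1 and 0.251, 0.358 and 0.670 CPM with hairpin 2. In both genes the groups overlap, and a difference was not detectable at this depth. Cox7a1 had the largest fitted change of any member with hairpin 2 in size (-1.25, SE 0.72; edgeR adjusted p = 0.444), and it was -0.64 without control replicate 3.

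**Figure D1:**
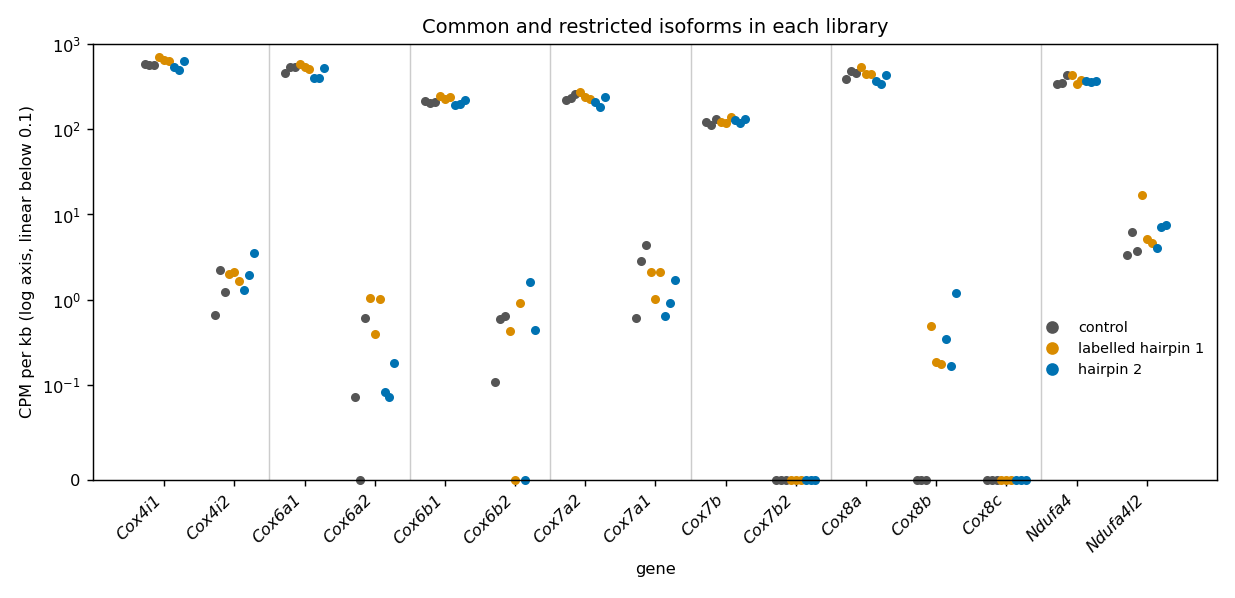
CPM per kb of transcript (vertical axis, logarithmic above 0.1 and linear below) of common isoforms and their restricted partners, with 1 point per library coloured by group. Common forms lie above 100 CPM per kb in every library, while restricted forms lie below 20 CPM per kb, and Cox7b2 and Cox8c lie at 0.

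Subunit c of the ATP synthase membrane ring is encoded by 3 genes whose products differ in the import sequence but give the same mature protein. In control libraries Atp5g3 stood at 546 CPM per kb, Atp5g2 at 389 CPM per kb and Atp5g1 at 48.8 CPM per kb, the last with a transcript length that depends on the principal isoform taken. Atp5g3 took 47.4%, 53.2% and 55.5% of their summed CPM in control, 53.1%, 49.7% and 48.6% labelled hairpin 1 and 49.5%, 51.2% and 52.4% with hairpin 2. The share of Atp5g1 ran from 16.7% to 18.1% in control, 15.0% to 18.6% labelled hairpin 1 and 13.9% to 17.0% with hairpin 2. These shares are of CPM without correction for transcript length, so they compare libraries and not the 3 genes with each other. They overlapped between all 3 groups.

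The members together summed to 12034, 12751 and 13408 CPM in the control libraries, 14350, 12837 and 12443 CPM in those labelled hairpin 1 and 11092, 10523 and 13158 CPM with hairpin 2. The group values were 12731 ± 687, 13210 ± 1006 and 11591 ± 1386 CPM (SD, n = 3). Replicates 1 and 2 of hairpin 2 were the lowest of the 9 libraries, while replicate 3 of hairpin 2 lay within the control range. Replicate 1 labelled hairpin 1 was the highest. Such a level is relative to all RNA in the tissue, and in bulk samples fewer cells of a type and less RNA per cell cannot be told apart.

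The same order was seen member by member. Relative to each member's own mean over the 9 libraries, 8 of 86 members were above it in replicate 2 of hairpin 2, 12 in replicate 1 of hairpin 2 and 66 in replicate 3 of hairpin 2. The counts were 26, 56 and 71 in control and 75, 56 and 41 in the libraries labelled hairpin 1. The median deviation on the log2 scale was -0.22 in replicate 2 of hairpin 2 and 0.24 in replicate 1 labelled hairpin 1, the libraries that stood apart over all genes, and -0.17 in replicate 1 of hairpin 2. All other libraries had medians between -0.06 and 0.11.

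**Figure D2:**
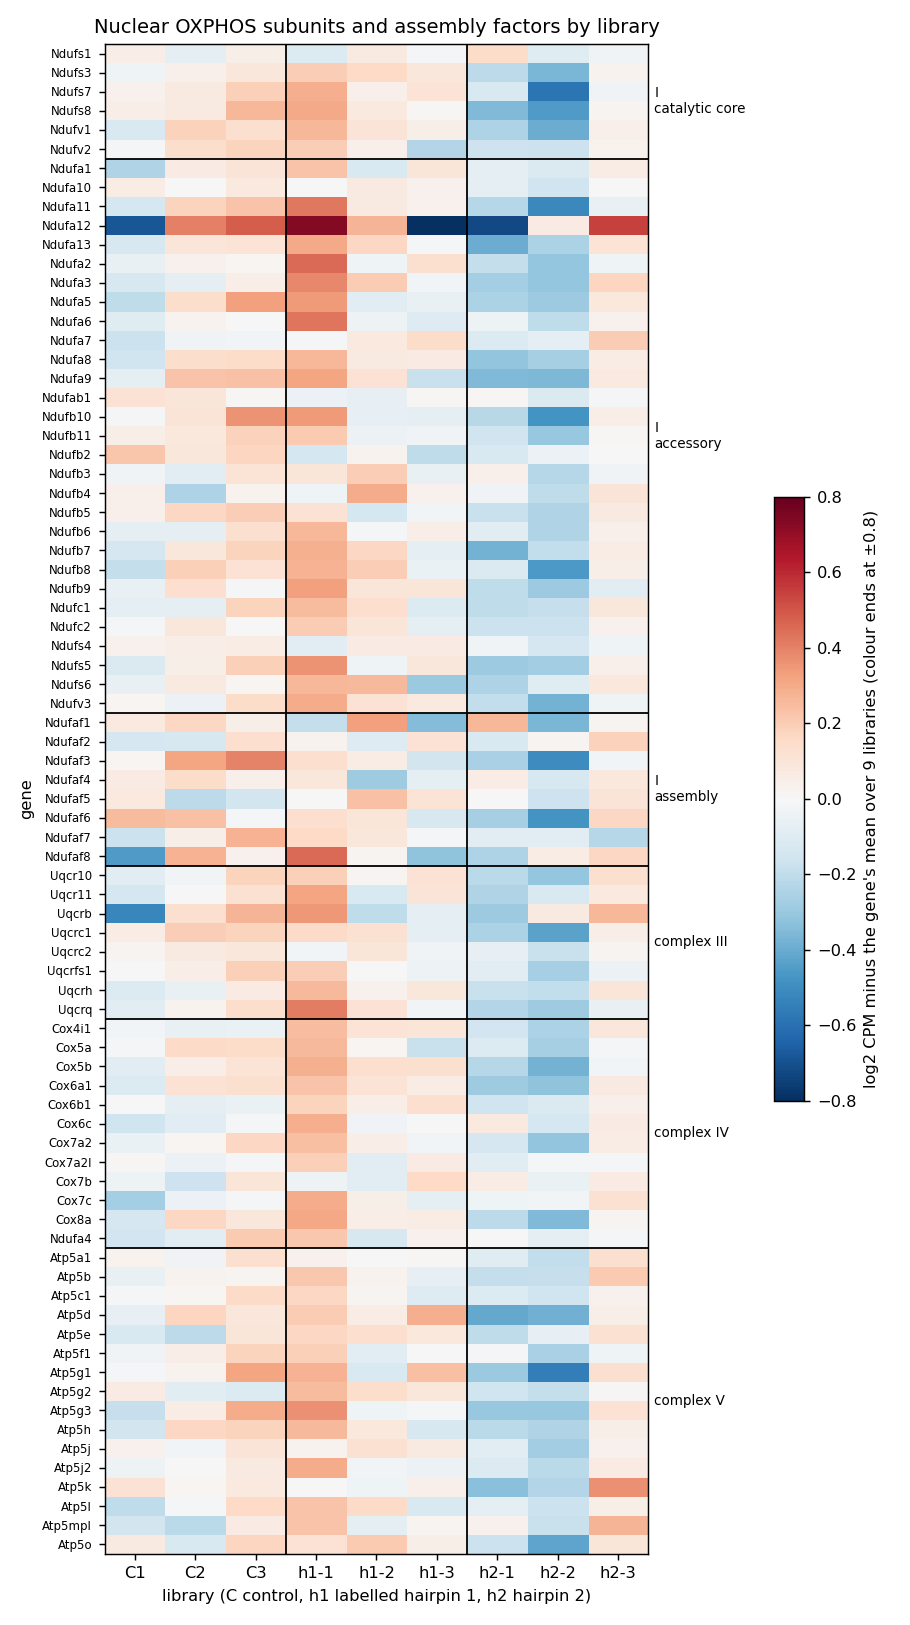
Log2 CPM minus the gene's mean over the 9 libraries (colour, ends at ±0.8) for 79 of the 80 tested subunits and assembly factors (rows, by role class) in each library (columns, by group). Columns h2-1 and h2-2 are mostly blue (lower), column h1-1 is mostly red (higher), and column h2-3 is mostly pale red.

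Every complex showed this spread within the hairpin 2 group. Complex I core subunits summed to 1054, 1097 and 1132 CPM in control and 971, 844 and 1065 CPM with hairpin 2, and to 1181, 1103 and 1035 CPM labelled hairpin 1. Complex III summed to 1242, 1344 and 1413 CPM in control and 1112, 1047 and 1305 CPM with hairpin 2. Complex IV summed to 2147, 2275 and 2369 CPM in control and 2065, 1944 and 2331 CPM with hairpin 2, and complex V to 5392, 5576 and 5935 CPM in control and 4917, 4738 and 6050.2 CPM with hairpin 2. Replicate 3 of hairpin 2 lay inside the control range in the first 3 of these classes and above it in complex V, so hairpin 2 and control overlap in all 4.

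**Figure D3:**
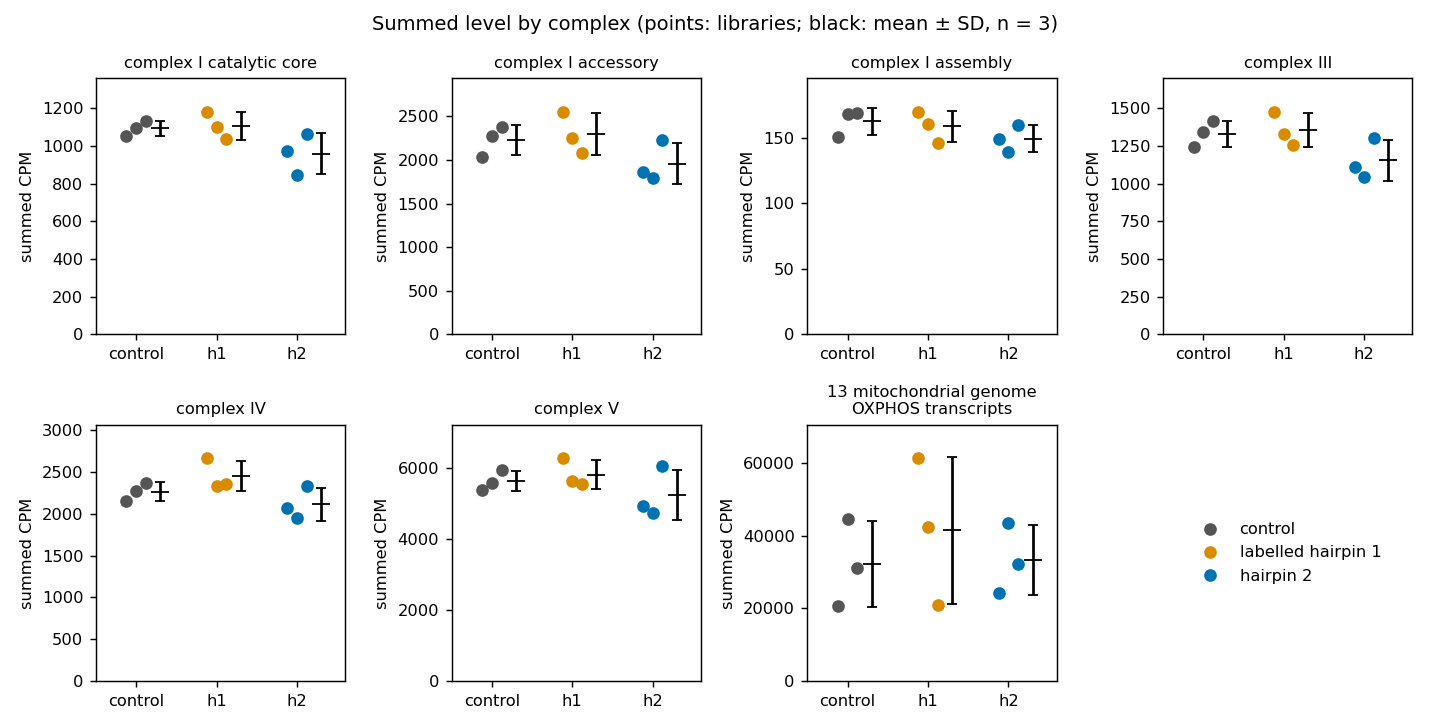
Summed CPM (vertical axes, from 0) of 6 role classes (complex I core, accessory and assembly, and complexes III, IV and V) and of the 13 mitochondrial genome transcripts, with 1 point per library and the mean ± SD of 3 libraries in black. In each nuclear panel the third hairpin 2 library lies above the other 2 of its group, and hairpin 2 overlaps control.

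Hairpin 2 was compared with control. No member passed an adjusted p of 0.05 by edgeR, DESeq2 or limma-voom, against a background of 0% of all tested genes by edgeR and limma-voom (0 of 14193) and 1.97% by DESeq2. At an unadjusted p under 0.05, 6 members were lower (6.98% of 86, against 6.27% of all tested genes) and 0 were higher (against 8.14%). In 11 members (12.8%) all hairpin 2 libraries lay below all controls, against 10.2% of all tested genes, and in 0 all lay above, against 10.6%. The log2 fold change was below 0 in 69 of 86 members (48.5% of all tested genes) and above 0 in 17 (51.5% of all), with a median of -0.13, against 0.01 over all tested genes. The share of members called lower was thus near the background, while the members' fold changes leaned to one side by a small amount.

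Markers of other cell types that the tumours could hold were read in the same comparison. The log2 fold change against control was above 0 in 6 of 6 fibroblast markers (median 1.97), 5 of 5 endothelial markers (0.40), 7 of 7 erythroid markers (1.22), 7 of 8 pericyte markers (1.00) and 6 of 8 leukocyte markers (0.23), and in 2 of 7 melanoma cell markers (-0.07). None passed edgeR's threshold. Fibroblast markers summed to between 161 and 389 CPM in control and between 262 and 1367 CPM with hairpin 2, and endothelial markers to between 140.0 and 159.8 CPM and between 145 and 274 CPM. Erythroid markers summed to between 2544 and 4976 CPM in control, and with hairpin 2 to 422, 21541 and 527 CPM, so only replicate 2 lay above the controls. For the libraries labelled hairpin 1 against control, 6 of 6 fibroblast (median 2.48) and 5 of 5 endothelial markers (0.39) were above 0. So were 8 of 8 leukocyte (0.31), 8 of 8 pericyte (0.57), 4 of 7 melanoma cell (0.02) and 0 of 7 erythroid markers (-1.47). None of these passed edgeR's threshold. Log2 fold changes mostly above 0 for fibroblast, endothelial, pericyte and leukocyte markers were thus not particular to hairpin 2. Leukocyte sums were 97.6, 216 and 76.3 CPM in control and 287, 86.3 and 120 CPM labelled hairpin 1. With hairpin 2 they were 105, 35.1 and 323 CPM, so the groups overlap. The part of these cell types in the members' lean was not tested.

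The 6 members lower at an unadjusted p were Ndufaf3, Ndufs8, Uqcrc1, Ndufs7, Atp5d and Ndufa11, the last 3 named after their values were seen. Ndufaf3, a complex I assembly factor (GRCm38 chromosome 9, start 108565537, minus strand, with an exon overlapping Impdh2 on the opposite strand), stood at 14.3, 17.6 and 18.7 CPM in control, 15.6, 14.8 and 12.8 CPM labelled hairpin 1 and 11.9, 10.02 and 13.95 CPM with hairpin 2. All hairpin 2 values lay below all controls, with a gap of less than 1 CPM between replicate 3 of hairpin 2 and control replicate 1. Its log2 fold change was -0.50 (SE 0.18, 95% interval -0.89 to -0.10; edgeR unadjusted p = 0.0181, adjusted p = 0.270; exact two-sided permutation p = 0.1, the smallest that 3 against 3 libraries allow). The strand setting of the counting is not given, so reads of the exon shared with Impdh2 cannot be told apart.

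Ndufs8, an iron-sulfur core subunit of complex I whose promoter is shown above, stood at 89.5, 90.6 and 104 CPM in control, 106, 91.1 and 86.9 CPM labelled hairpin 1 and 67.3, 62.9 and 87.7 CPM with hairpin 2. The hairpin 2 libraries lay below all controls, replicate 3 by the least (log2 fold change -0.38, SE 0.14; edgeR adjusted p = 0.278). Uqcrc1 (GRCm38 chromosome 9, start 108936633, plus strand, no overlapping exon) stood at 393.0, 432 and 427 CPM in control, 419, 412 and 358 CPM labelled hairpin 1 and 316, 280.1 and 392 CPM with hairpin 2. Hairpin 2 lay below all controls, yet replicate 3 of hairpin 2 and control replicate 1 differed by under 1 CPM (log2 fold change -0.34, SE 0.13; edgeR adjusted p = 0.279).

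Ndufs7, the core subunit that holds the last iron-sulfur cluster before the quinone, stood at 89.5, 91.8 and 99.6 CPM in control and 80.3, 58.3 and 85.8 CPM with hairpin 2. All 3 hairpin 2 libraries lay below the controls (-0.32, SE 0.14; edgeR adjusted p = 0.341). Atp5d, the delta subunit of the F1 central stalk, stood at 322, 380 and 359 CPM in control and 254, 258 and 348 CPM with hairpin 2, and Ndufa11, an accessory subunit of the membrane arm, at 69.7, 86.8 and 90.1 CPM in control and 65.6, 53.9 and 73.7 CPM with hairpin 2. In both, replicate 3 of hairpin 2 lay within the control range.

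Other members with central roles differed less. Atp5b stood at 1879, 1989 and 1988 CPM in control, 2266, 1991 and 1868 CPM labelled hairpin 1 and 1712, 1723 and 2255 CPM with hairpin 2, with overlapping groups (hairpin 2 against control -0.04, 95% interval -0.31 to 0.23; edgeR adjusted p = 0.903). Cox4i1 stood at 444, 432 and 433 CPM in control, 533, 485 and 481 CPM labelled hairpin 1 and 404, 378 and 478 CPM with hairpin 2 (hairpin 2 against control -0.05, SE 0.10; edgeR adjusted p = 0.838). Ndufs1 stood at 176, 161 and 175 CPM in control and 188, 158 and 167 CPM with hairpin 2, with a log2 fold change of 0.00 (95% interval -0.22 to 0.22). For the remaining fixed core subunits, Ndufv1 (the NADH-binding subunit), Uqcrfs1 (the Rieske iron-sulfur protein) and Cox5a, hairpin 2 values were 122, 110.3 and 149.5 CPM, 154, 136 and 159 CPM, and 86.7, 78.0 and 92.5 CPM. Their control values were 133, 165 and 158 CPM, 164, 170 and 187 CPM, and 93.2, 104 and 104 CPM. Hairpin 2 lay below all controls for Uqcrfs1 and Cox5a and overlapped them for Ndufv1.

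By role, the fold change with hairpin 2 was below 0 in 6 of 7 complex I core subunits (median -0.21), 27 of 29 accessory subunits (-0.17), 5 of 8 assembly factors (-0.09), 7 of 8 genes of complex III (-0.14), 9 of 12 of complex IV (-0.05) and 14 of 16 of complex V (-0.12). The count of 6 lower members depended on single libraries. Shares of all tested genes under the settings that follow are not given, so these counts show only that dependence. Leaving out replicate 3 of hairpin 2 gave 24, and leaving out replicate 1 labelled hairpin 1 gave 16, although that library is in neither group compared. It shares the scaling and the estimate of spread with them. It was 13 without control replicate 1, 2 without control replicate 2, 2 without replicate 1 of hairpin 2, and 0 when control replicate 3 or replicate 2 of hairpin 2 was left out. Without both libraries that stood apart it was 1, and the median was -0.10.

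Transcript length was read beside these values. Median transcript length was 810 bases for tested members and 2727 bases for all tested genes. The rank correlation across genes of a library's log2 deviation with transcript length was 0.32, 0.32 and 0.13 in hairpin 2, -0.01, -0.23 and -0.20 in control and -0.32, -0.08 and 0.02 in the libraries labelled hairpin 1. Short transcripts were thus relatively low in the hairpin 2 libraries. The same correlation with GC content was -0.38, -0.20 and -0.02 in hairpin 2, and 0.12, 0.11 and 0.07 in control. It was 0.09, 0.15 and 0.13 in the libraries labelled hairpin 1. The trend fitted from length and GC content had a median over members of -0.09, -0.07 and -0.04 in hairpin 2. The members' median deviations there were -0.17, -0.22 and 0.06, so replicate 3 of hairpin 2 did not follow its trend. With each library's trend in length and GC content removed, the median over members was -0.06 against -0.03 over all tested genes, and 0 members were lower at an unadjusted p under 0.05. The trends in length and GC content were removed together, so the part of each was not separated. What produced them was not tested.

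The libraries labelled hairpin 1 were compared with the same 3 controls. No member passed an adjusted p of 0.05 by edgeR, DESeq2 or limma-voom (background 0% by each), and 0 reached an unadjusted p under 0.05 by edgeR in either direction, against 1.85% of all tested genes higher and 1.32% lower (DESeq2 gave 2 members higher). The log2 fold change was above 0 in 61 of 86 members (52.6% of all tested genes) and below 0 in 25 (47.4% of all). Its median was 0.08 and became -0.02 without replicate 1 labelled hairpin 1, so the direction rested on that library. All libraries labelled hairpin 1 lay above all controls in 5 members (4.09% of all tested genes), namely Ndufa7, Cox4i1, Cox5b, Cox6b1 and Atp5g2, and below them in 2 (4.3% of all), Ndufab1 and Ndufb2.

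Atp5g2 had the smallest p of the members in this comparison. It stood at 245, 220.4 and 218 CPM in control, 279, 259 and 250.2 CPM labelled hairpin 1 and 209.9, 206 and 236 CPM with hairpin 2 (labelled hairpin 1 against control 0.21, SE 0.10; edgeR unadjusted p = 0.0605, adjusted p = 1.00; exact permutation p = 0.1). The libraries labelled hairpin 1 lay above all controls, and hairpin 2 overlapped the controls. Ndufb2 is an accessory subunit whose exons overlap Braf and Gm16272 on the opposite strand and Gm42420 on the same strand. It stood at 18.3, 16.7 and 17.7 CPM in control, 14.3, 16.0 and 13.6 CPM labelled hairpin 1 and 14.4, 15.2 and 15.7 CPM with hairpin 2. Both hairpin groups lay below all controls, by -0.27 on the log2 scale labelled hairpin 1 (SE 0.13; edgeR adjusted p = 1.00) and by -0.22 with hairpin 2 (SE 0.13; edgeR adjusted p = 0.472). The comparisons share their controls. Without a strand setting, reads of Braf and Gm16272 cannot be told apart from those of Ndufb2 where exons overlap. Reads of Gm42420 could not be told apart by strand in any case.

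Over the mean of both hairpins against control, 0 members passed an adjusted p of 0.05 by edgeR, DESeq2 or limma-voom (background 0% by edgeR and limma-voom and 0.0634% by DESeq2). Ndufaf3 was the only member lower at an unadjusted p under 0.05 by edgeR (-0.36, SE 0.15), against 3.36% of all tested genes, and 0 were higher, against 3.92%. The median was -0.05, with 54 of 86 members below 0 (47.8% of all tested genes) and 32 above (52.2% of all). Ndufb2 (-0.24, SE 0.11) and Ndufb5, an accessory subunit (-0.20, SE 0.10), followed by p. Ndufb5 stood at 91.8, 100.2 and 103 CPM in control, 96.7, 80.9 and 88.0 CPM labelled hairpin 1 and 79.0, 75.7 and 93.8 CPM with hairpin 2, with overlapping groups.

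**Figure D4:**
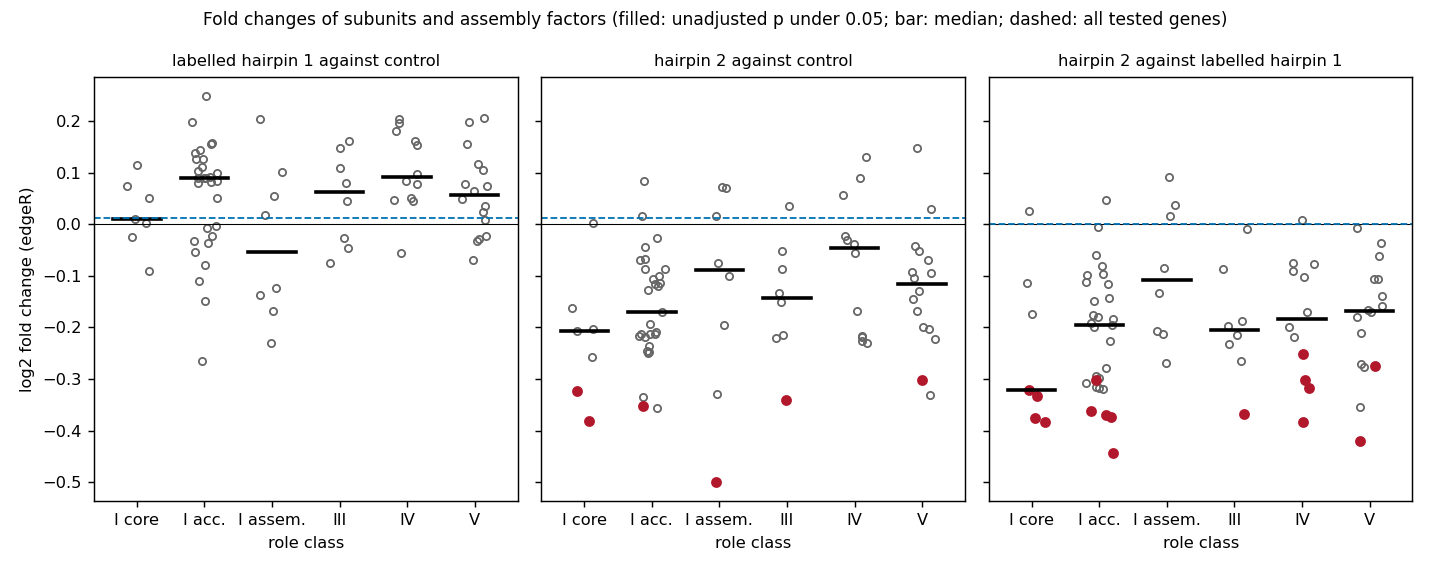
edgeR log2 fold change (vertical axis) of the 80 tested subunits and assembly factors by role class in 3 comparisons, with filled points at an unadjusted p under 0.05, a bar at the class median and a dashed line at the median of all tested genes. Class medians of hairpin 2 lie between -0.05 and -0.21 against control and between -0.11 and -0.32 against the libraries labelled hairpin 1.

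The hairpins were then compared with each other. With hairpin 2 against the libraries labelled hairpin 1, 0 members passed an adjusted p of 0.05 by edgeR, DESeq2 or limma-voom (background 0% by edgeR and limma-voom and 0.627% by DESeq2). At an unadjusted p under 0.05, 16 were lower (18.6% of 86, against 5.23% of all tested genes) and 0 higher (against 6.43%). All hairpin 2 libraries lay below all of those labelled hairpin 1 in 18 members (20.9%), against 7.67% of all tested genes, and above them in 0, against 8.31%. The log2 fold change was below 0 in 77 members (49.8% of all tested genes) and above 0 in 9 (50.2% of all), with a median of -0.19 against 0.00 over all tested genes. The difference was below 0 in 6 of 7 complex I core subunits (median -0.32), 28 of 29 accessory subunits, 5 of 8 assembly factors, all 8 genes of complex III, 11 of 12 of complex IV and all 16 of complex V.

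Cox5b, a subunit of complex IV on the matrix side (GRCm38 chromosome 1, start 36691449, plus strand), had the smallest p. It stood at 235, 258 and 269 CPM in control, 303, 274 and 272 CPM labelled hairpin 1 and 213, 192 and 245 CPM with hairpin 2. Hairpin 2 lay below all libraries labelled hairpin 1 and overlapped the controls (-0.38, SE 0.11; edgeR unadjusted p = 0.00585, adjusted p = 0.375; exact permutation p = 0.1). Ndufb9, an accessory subunit, stood at 66.3, 76.1 and 68.4 CPM in control, 86.8, 74.1 and 74.1 CPM labelled hairpin 1 and 60.1, 56.5 and 64.9 CPM with hairpin 2 (-0.37, SE 0.11; edgeR adjusted p = 0.375). Ndufv3, an accessory subunit of the NADH module, stood at 108, 103 and 118 CPM in control, 132, 116 and 113 CPM labelled hairpin 1 and 93.5, 82.5 and 104 CPM with hairpin 2 (-0.36, SE 0.12; edgeR adjusted p = 0.375). In all 3 genes hairpin 2 lay below every library labelled hairpin 1.

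The count of 16 became 36, 9 and 5 when replicates 3, 1 and 2 of hairpin 2 were left out, and 6 when replicate 1 labelled hairpin 1 was. Without both libraries that stood apart it was 0, and the median was -0.06. Removing the trends in length and GC content left 1, with a median of -0.08 against -0.02 over all tested genes. Shares of all tested genes beside these counts are not given, so the counts show only how far 16 depends on the setting. The part of these libraries, of transcript length and of GC content in the difference between the hairpins was not tested further. Erythroid markers were above 0 in 7 of 7 in this comparison (median 2.72) and fibroblast markers in 1 of 6 (-0.42). Erythroid sums were 1493, 1037 and 1065 CPM labelled hairpin 1 and 422, 21541 and 527 CPM with hairpin 2. Only replicate 2 of hairpin 2 lay above the libraries labelled hairpin 1. Fibroblast sums were 3231, 239 and 730 CPM labelled hairpin 1 and 262, 432 and 1367 CPM with hairpin 2, with overlapping groups. The highest sums were in the libraries that stood apart, and the part of these cell types was not tested either.

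Genes of the pathway outside the symbol rule were read from lists chosen with earlier results known, and none passed edgeR's threshold in any comparison. With hairpin 2 against control, the log2 fold change was below 0 in 7 of 8 complex II subunits and assembly factors (2 of them at an unadjusted p under 0.05), 5 of 7 further complex III genes (2), 8 of 10 further complex I assembly genes (1) and 16 of 22 complex IV assembly genes (2). It was below 0 in 12 of 13 coenzyme Q synthesis genes (1), 11 of 12 tricarboxylic acid cycle genes (3), 3 of 4 complex V assembly and inhibitor genes (1) and 1 of 2 cytochrome c genes (0). Over all tested genes, 48.5% were below 0 and 6.27% were lower at an unadjusted p under 0.05. Medians of these lists ran from -0.19 for complex IV assembly to -0.09 for complex V assembly, near that of the members.

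Among them, Sdhb, the iron-sulfur subunit of complex II, stood at 431, 455 and 475 CPM in control, 511, 432 and 439 CPM labelled hairpin 1 and 374, 312 and 415 CPM with hairpin 2 (hairpin 2 against control -0.31, SE 0.12; edgeR adjusted p = 0.293). Cyc1, which encodes cytochrome c1 of complex III, stood at 383, 452 and 429.9 CPM in control, 453, 394 and 366 CPM labelled hairpin 1 and 324, 276 and 374 CPM with hairpin 2 (-0.38, SE 0.13; edgeR adjusted p = 0.267). Ecsit, a complex I assembly factor, stood at 49.8, 60.1 and 56.8 CPM in control, 59.4, 46.1 and 46.7 CPM labelled hairpin 1 and 37.3, 39.3 and 47.8 CPM with hairpin 2 (-0.42, SE 0.14; edgeR adjusted p = 0.267). Hairpin 2 lay below all controls in these 3 genes, which were chosen from the lists after their values were seen.

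The regulators went in both directions with hairpin 2, 7 of 12 above 0. Ppargc1a stood at 143, 142 and 84.2 CPM in control, 129.6, 142 and 247 CPM labelled hairpin 1 and 186, 252 and 482 CPM with hairpin 2. All hairpin 2 libraries lay above all controls (log2 fold change 1.32, SE 0.41; edgeR unadjusted p = 0.0120, adjusted p = 0.261), as in 10.6% of all tested genes. Of the 12 regulators, 1 was higher at an unadjusted p under 0.05 by edgeR, against 8.14% of all tested genes. None was lower, against 6.27%. Ppargc1a was not fixed by the rule for named genes. Within hairpin 2, replicate 2 had the lowest summed members and an intermediate Ppargc1a level, while replicate 3 was highest in both. The part of Ppargc1a in the members' levels was not tested. Esrra, a nuclear receptor that acts with Ppargc1a, stood at 46.1, 67.8 and 67.2 CPM in control and 51.3, 30.6 and 55.0 CPM with hairpin 2, with overlapping groups. Nrf1, Gabpa and Yy1, whose motifs were counted above, differed on the log2 scale by 0.07 (SE 0.13), 0.17 (SE 0.17) and 0.11 (SE 0.13), none past the threshold.

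Transcripts of the mitochondrial genome, which encode the remaining subunits of the same complexes, varied more between libraries than the nuclear ones. The 13 OXPHOS transcripts summed to 20774, 44599 and 31230.3 CPM in control, 61408, 42382 and 20892 CPM labelled hairpin 1 and 24196, 43481 and 32252 CPM with hairpin 2. The groups overlap throughout. The ratio of mitochondrial to nuclear sums was 1.73, 3.498 and 2.33 in control, 4.28, 3.30 and 1.68 labelled hairpin 1 and 2.18, 4.13 and 2.45 with hairpin 2. Replicate 1 labelled hairpin 1 was highest in both sums, and the libraries labelled hairpin 1 had the same order in both. Control replicate 1 was the lowest control in both, while control replicates 2 and 3 stood in opposite order in the sums. Replicate 2 of hairpin 2 had the lowest nuclear sum and the third highest mitochondrial sum. With hairpin 2 against control, 11 of the 13 had a log2 fold change above 0 (median 0.28), against 51.5% of all tested genes. For the libraries labelled hairpin 1, all 13 were above 0 (median 0.36), against 52.6% of all tested genes. In both comparisons 0 passed edgeR's threshold (0 at an unadjusted p under 0.05).

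A few members had uneven levels that no group followed, and were chosen after their values were seen. Ndufa12, an accessory subunit of complex I, stood at 35.6, 75.7 and 80.0 CPM in control, 95.1, 69.1 and 26.6 CPM labelled hairpin 1 and 34.8, 59.9 and 83.7 CPM with hairpin 2. Its SD of log2 CPM was 0.66, against a median of 0.19 over the 29 accessory subunits. The low library was the first of the control group, the third labelled hairpin 1 and the first of hairpin 2, and these 3 libraries also had the lowest mitochondrial sums. Ndufaf8, a complex I assembly factor, stood at 15.2, 25.2 and 21.2 CPM in control, 28.4, 21.1 and 16.6 CPM labelled hairpin 1 and 17.4, 21.6 and 23.2 CPM with hairpin 2, with the same 3 libraries lowest. Uqcrb, a small subunit of complex III, stood at 28.6, 44.96 and 49.5 CPM in control, 52.2, 35.7 and 39.0 CPM labelled hairpin 1 and 33.6, 43.2 and 49.4 CPM with hairpin 2, with control replicate 1 and replicate 1 of hairpin 2 lowest. None of the 3 genes differed detectably between groups, with Ndufa12 at -0.10 for hairpin 2 (SE 0.52; edgeR adjusted p = 0.945).

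**Figure D5:**
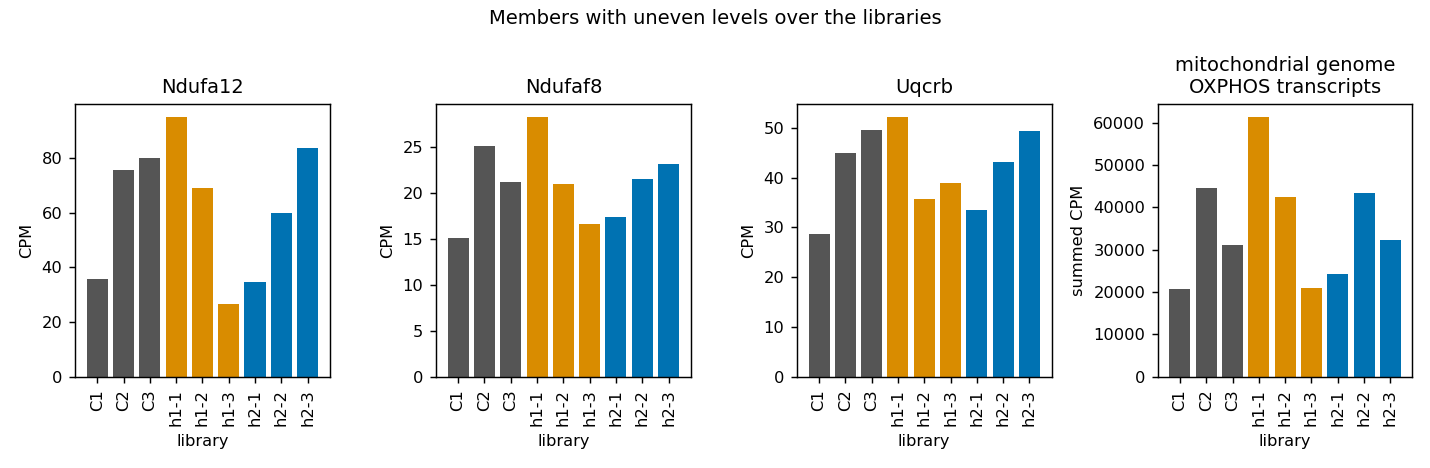
CPM of Ndufa12, Ndufaf8 and Uqcrb and the summed CPM of the 13 mitochondrial genome transcripts (vertical axes, from 0) in each library, coloured by group. Libraries C1, h1-3 and h2-1 are the lowest 3 for Ndufa12, Ndufaf8 and the mitochondrial sum, and the lower libraries for Uqcrb are C1 and h2-1.

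The remaining members were gene copies and a related factor. Atp5s, coupling factor B, stood between 5.79 and 9.65 CPM over the 9 libraries. Ndufb4c and Ndufs6b, annotated in GENCODE M21 as processed pseudogenes, stood between 0.784 and 2.76 CPM and between 0.0653 and 0.895 CPM. With hairpin 2 their log2 fold changes were 0.85 (SE 0.46) for Ndufb4c and 1.08 (SE 0.82) for Ndufs6b, opposite in sign to most subunits, with overlapping groups and edgeR adjusted p of 0.413 and 0.569. Their parent genes Ndufb4 and Ndufs6 differed by 0.02 and -0.09, and reads shared between a copy and its parent may have been split by the counting. In all, 32 of the 93 members have an exon overlapping another gene.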

How the data were processed

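The authors deposited whole-number counts per gene symbol, 1 file per library. STAR 2.7.0d, Cufflinks and 2 human builds (GRCh38, hg38) appear in the submitters' processing notes, while the symbols are those of mouse genes. The tool that counted, its annotation and strand setting are not given in the sources used. The 3 groups were fitted together in edgeR 4.0.16 (R 4.3.3) by robust quasi-likelihood after filterByExpr (minimum count 10, minimum total 15) and TMM scaling, with Benjamini-Hochberg adjustment over 14193 genes and a threshold of 0.05. Only the members' values are reported. A fold change above 0 means higher in the group named first. Library totals of 15322163 to 17342554 counts set the precision, and p-values from so few libraries depend on the shared estimate of spread. Per-length levels used the median length of the principal transcripts in GENCODE M21, the assembly GRCm38, which covers 99.39% of tested genes. Promoters came from RefSeq. Alternatives were DESeq2 1.42.0, limma-voom (limma 3.58.1), 2 other scalings, no filter, summed entries, only the groups compared, removal of length and GC trends, a replicate block, structural subunits alone and leaving out libraries. edgeR was tested on simulated data. The members and lists were chosen with earlier results of these data known. Named members were fixed isoforms and core subunits, the highest per length in each role class, the 3 of smallest p and the 3 of largest change per comparison, and the 3 most and 3 least variable. Others are said to be chosen after their values were seen. Values of 1 member that this rule names are not reported here.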

Additional observations from a re-analysis of the deposited data

Results flagged for a closer look

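Atp5l2-ps, which the symbol rule left out because its symbol holds "-ps", stood at 0.597, 0.915 and 0.892 CPM in control, 0.888, 0.874 and 0.631 CPM labelled hairpin 1 and 1.32, 1.73 and 1.04 CPM with hairpin 2. It was singled out as a signal in an entry outside the set that lay above the control libraries in every hairpin 2 library. The log2 fold change was 0.76 (SE 0.43; edgeR unadjusted p = 0.110, adjusted p = 0.440), so it did not pass the threshold.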

How the results depend on the processing

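No member passed an adjusted p of 0.05 in any comparison under any alternative run. All the following counts are of members at an unadjusted p under 0.05. They stand without the share of all tested genes under the same setting, so they show only how the counts depend on it. For hairpin 2 against control, 6 members were lower, and 11 by DESeq2 and with upper-quartile scaling, 10 with only the groups compared, 0 with length and GC trends removed, 1 with these trends removed and a replicate block, and 1 without both libraries that stood apart. Members higher were 0, and 1 without the filter on low counts. For hairpin 2 against the libraries labelled hairpin 1, 16 were lower, and 26 without the filter, 1 with trends removed, 2 with trends removed and the block, and 0 without both libraries. For the libraries labelled hairpin 1, DESeq2 gave 2 higher in place of 0. For the mean of both hairpins, 1 was lower, and 2 with upper-quartile scaling and 0 with the block, with trends removed with or without the block, without both libraries, or over structural subunits alone; 1 was higher without the filter.

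Leaving out each library gave 0 to 24 lower members for hairpin 2 against control and 5 to 36 between the hairpins, 0 to 1 higher for hairpin 2, 0 to 2 higher and 0 to 1 lower for the libraries labelled hairpin 1, and 0 to 6 lower and 0 to 1 higher for the mean. Medians then ran from -0.21 to -0.09, from -0.27 to -0.11, from -0.02 to 0.14 and from -0.09 to 0.01 for hairpin 2, between the hairpins, labelled hairpin 1 and the mean. All causes other than the libraries or genes left out were not tested.

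Correlations of same-numbered deviations ran from -0.41 to 0.14, and those of different numbers from -0.41 to 0.51. No pairing by replicate number was seen, but with 3 libraries per group this check cannot exclude it. The replicate block gave 6 lower members for hairpin 2, 13 between the hairpins and 0 for the mean. Of 908 values of named members under alternatives, 46 had the other sign, in 14 of 46 member and comparison pairs. Depth limits the restricted isoforms, most of which had under 50 counts per library.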

Other observations

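Ndufb1-ps, another entry left out for its symbol, stood at 18.7, 18.8 and 15.3 CPM in control, 26.9, 20.2 and 18.2 CPM labelled hairpin 1 and 15.9, 17.9 and 24.9 CPM with hairpin 2. Its log2 fold changes were 0.31 (SE 0.21) labelled hairpin 1 and 0.15 (SE 0.21) with hairpin 2, with overlapping groups. Ndufab1-ps stood at 6.45, 7.52 and 8.15 CPM in control, 8.76, 7.40 and 6.31 CPM labelled hairpin 1 and 6.71, 7.10 and 7.07 CPM with hairpin 2, also overlapping. Coq6, a hydroxylase of coenzyme Q synthesis chosen after its values were seen, stood at 39.1, 34.96 and 32.0 CPM in control, 36.3, 35.7 and 37.1 CPM labelled hairpin 1 and 25.7, 26.8 and 30.7 CPM with hairpin 2. Hairpin 2 lay below all other libraries for Coq6, with log2 fold changes of -0.35 (SE 0.12; edgeR adjusted p = 0.267) against control and -0.39 (SE 0.12; edgeR adjusted p = 0.375) against the libraries labelled hairpin 1.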
